A study of Mus musculus with 4 samples.

Results

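The genes of cholesterol synthesis, of its control by sterol regulatory element-binding proteins (SREBPs) and of cholesterol movement inside the cell were followed in IMQ-treated dorsal skin. They were selected by gene symbol, 27 genes in all, and each of the 27 was found among the 24346 symbols of every library and passed the filter on low values, together with 15896 genes in total. The genes comprise 20 synthesis enzymes, 4 genes of SREBP control (*Insig1*, *Insig2*, *Scap* and *Srebf2*) and 3 genes of cholesterol transport (*Stard4*, *Npc1* and *Npc2*), and no receptor for the uptake of lipoproteins is among them.

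RNA sequencing was carried out on Day 1 in male C57BL/6 mice that were 8 weeks old when the diet began. The 2 libraries of the Cont-IMQ group came from mice kept for 3 weeks on the NASH diet. This diet is rich in fat, cholesterol, sucrose and bile salt, and IMQ cream was applied over 1 day at its end. The 2 libraries of the 7KC-IMQ group came from mice that received the same diet with 7-ketocholesterol (7KC), an oxidized form of cholesterol, and IMQ cream, for which the sample labels also give 1 day. The description of the whole series instead speaks of daily application for the 7KC-IMQ group, and a difference in IMQ exposure between the groups was not tested and would bear on every difference given here. Both groups therefore share the cholesterol-rich diet and IMQ, an agonist of Toll-like receptor 7, and neither normal chow nor vehicle-treated skin is part of the comparison. Nothing in the labels says whether an RNA sample was pooled from several mice, so p-values measure only the spread between these libraries, which may be partly technical. Gene expression was given as FPKM, in which the fragments assigned to a gene are divided by its exon length and by the depth of the library. This allows for gene length and depth, but not for every difference between libraries. Summed over the genes tested, FPKM ran from 630172 in Cont-IMQ replicate 2 to 702137 in 7KC-IMQ replicate 2, and results with other scalings are given below. Values below are given as replicates 1 and 2 of Cont-IMQ against replicates 1 and 2 of 7KC-IMQ, in that order, and differences are 7KC-IMQ minus Cont-IMQ on the log2(FPKM + 1) scale. The depth estimated from the steps of the low values lay between 14990000 and 16210000 reads per library. At this depth the least expressed of the sterol genes, *Tm7sf2*, rested on an estimated 354 reads or more in every library, and *Fdps*, the most abundant, on 10114 or more.

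Cholesterol is built from acetyl-CoA through mevalonate, activated isoprene units, squalene and lanosterol. When sterols are scarce in the membrane of the endoplasmic reticulum, SCAP carries SREBP to the Golgi apparatus, where proteases release the part that switches on the enzyme genes. When cholesterol is abundant it binds SCAP, and oxysterols bind the INSIG proteins, and both keep SREBP where it is. In skin, keratinocytes and sebocytes make their own cholesterol, which is one of the lipids of the epidermal barrier and of sebum. An oxysterol in the diet therefore invites the question whether sterol synthesis genes in the skin differ. The paper, however, measured the added oxysterol in dorsal skin before IMQ and found no significant difference between the diets. In serum its concentration was significantly higher with the diet that contained it. Whether it reached the cells of the skin was not tested here, and the comparison below gives only the expression values.

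Promoter sequences from RefSeq (GRCm38.p6) were available for 22 of the 27 genes, and the 250 bases before the transcription start were searched on both strands for TCACNCCAC, a form of the sterol response element that SREBP binds, and for CCAAT, the box bound by NF-Y, a known partner of SREBP. CCAAT was found in 20 of the 22 genes (90.9%), whereas it was found in 37.5% of all 27025 genes with such a window. Among the 5638 genes with windows whose mean FPKM reached that of *Tm7sf2* (9.32), the share was 39.8%. TCACNCCAC was found only in *Hmgcs1* among the 22, against 1.23% of all genes, and this search says nothing about other forms of the element. Of these genes, 5 are shown with all motif letters in capitals, where ATTGG is CCAAT on the other strand. *Hmgcs1* is shown because it holds both motifs, *Lss* because its 2 Cont-IMQ libraries differ strongly and it holds 1 CCAAT, *Insig2* because it is lower in the 7KC-IMQ group and holds 3 in the most upstream of its 3 windows, and *Acat2* and *Scap* because they hold none. The windows are chr13:119690101-119690350 on the plus strand for *Hmgcs1*, chr10:76531355-76531604 on the plus strand for *Lss*, chr1:121332590-121332839 on the minus strand for *Insig2*, chr17:12960726-12960975 on the minus strand for *Acat2* and chr9:110333038-110333287 on the plus strand for *Scap*, each written 5′ to 3′ along the gene.
Hmgcs1: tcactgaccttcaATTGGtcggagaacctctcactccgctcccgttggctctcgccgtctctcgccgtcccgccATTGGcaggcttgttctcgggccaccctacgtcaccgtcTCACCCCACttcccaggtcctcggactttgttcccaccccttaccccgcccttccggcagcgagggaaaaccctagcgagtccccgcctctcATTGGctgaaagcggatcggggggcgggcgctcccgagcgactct
Lss: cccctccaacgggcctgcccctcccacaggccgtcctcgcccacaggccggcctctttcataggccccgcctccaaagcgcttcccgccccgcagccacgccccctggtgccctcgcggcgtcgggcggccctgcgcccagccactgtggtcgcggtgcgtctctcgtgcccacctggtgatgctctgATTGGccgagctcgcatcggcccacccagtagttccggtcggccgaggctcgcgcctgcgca
Insig2: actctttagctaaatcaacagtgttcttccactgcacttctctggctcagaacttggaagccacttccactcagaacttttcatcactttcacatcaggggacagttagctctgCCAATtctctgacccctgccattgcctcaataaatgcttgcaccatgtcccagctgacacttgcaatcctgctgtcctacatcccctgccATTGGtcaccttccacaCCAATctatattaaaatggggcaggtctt
Acat2: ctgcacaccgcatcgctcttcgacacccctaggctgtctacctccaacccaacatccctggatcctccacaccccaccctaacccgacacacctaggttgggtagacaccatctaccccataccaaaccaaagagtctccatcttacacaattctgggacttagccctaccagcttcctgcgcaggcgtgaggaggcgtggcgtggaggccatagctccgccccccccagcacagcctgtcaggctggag
Scap: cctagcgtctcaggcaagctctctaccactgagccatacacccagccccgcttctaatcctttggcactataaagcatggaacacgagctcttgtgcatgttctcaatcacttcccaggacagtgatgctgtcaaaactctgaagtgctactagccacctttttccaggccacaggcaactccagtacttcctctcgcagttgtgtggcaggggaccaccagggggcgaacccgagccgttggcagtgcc

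The sterol genes were well expressed in all 4 libraries. The highest mean FPKM over the 4 libraries were those of *Fdps* (282), which makes farnesyl diphosphate, *Msmo1* (167), which removes methyl groups from the sterol ring, *Hmgcs1* (158), which makes HMG-CoA, *Idi1* (130), the isomerase of the isoprene unit, and *Sqle* (119), the epoxidase that begins ring closure. The lowest were those of *Tm7sf2* (9.32), a sterol reductase, and *Ggps1* (10.3), which diverts isoprene units to geranylgeranyl diphosphate. *Lbr*, which encodes a second enzyme with the same reductase activity as *Tm7sf2*, had a mean of 17.6 FPKM. In this order, *Msmo1* and *Hmgcs1* do not differ beyond their spread, since *Msmo1* ranged from 140.2 to 183 FPKM and *Hmgcs1* from 145 to 180.3 FPKM.

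**Figure D1:**
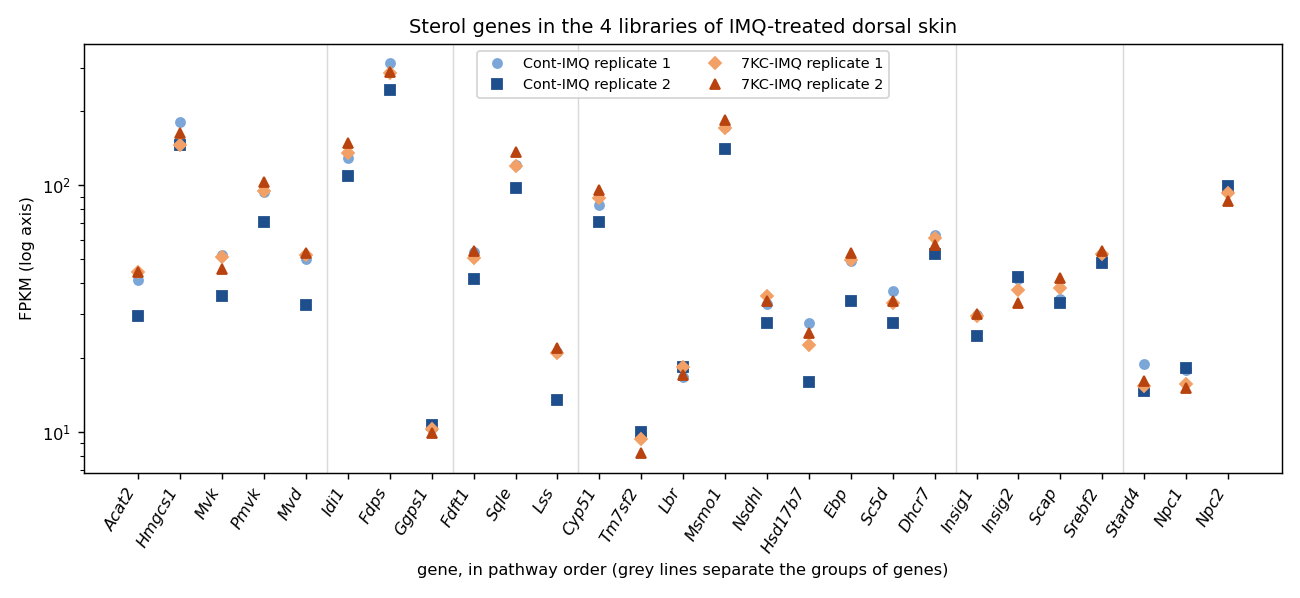
FPKM of the 27 sterol genes (log axis) in pathway order, 1 point for each of the 4 libraries. Cont-IMQ replicate 2 (dark blue squares) is the lowest point in 21 of the 27 genes, and the other 3 libraries lie close together in most of them.

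None of the 27 sterol genes differed between the 7KC-IMQ and Cont-IMQ groups after adjustment over all genes tested (limma, adjusted p from 0.366 to 0.952), where 0.00629% of all genes passed. Even without adjustment, 3 of the 27 (*Scap*, *Insig2* and *Npc1*, 11.1%) had a p-value under 0.05, against 13.0% of all genes. Of these, *Scap* was higher (7.5% of all genes) and *Insig2* and *Npc1* were lower (5.47% of all genes), which is near the background. The mean of the 7KC-IMQ group was the higher one in 20 of the 27 genes (74.1%) and the lower one in 7, with a median difference of 0.14, whereas 48.7% of all genes had a higher mean and their median difference was -0.0056. The groups did not overlap in 14 genes, with 7KC-IMQ higher in 9 (33.3%, against 23.9% of all genes) and lower in 5 (18.5%, against 22.9% of all genes). With each library scaled to the same sum, 5 were higher (15% of all genes) and 5 lower (32.1% of all genes). With quantile normalization, 7 were higher (23.1% of all genes) and 6 lower (22.1% of all genes), and with median ratio scaling, 9 were higher (22.6% of all genes) and 5 lower (24.1% of all genes). An exact permutation test of a single gene cannot give a two-sided p-value below 0.333 with 2 libraries against 2.

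The higher means rested largely on the low values of 1 library. With 2 Cont-IMQ libraries it cannot be told which of them is typical of the group. Without Cont-IMQ replicate 2, the median difference of the 27 genes was 0.0075, with 14 genes higher and 13 lower. Without Cont-IMQ replicate 1 it was 0.28, with 21 higher and 6 lower. Without 7KC-IMQ replicate 1 or 2 it was 0.16 or 0.099. Cont-IMQ replicate 2 held the lowest value of the 4 libraries in 21 of the 27 genes (77.8%), against 26.6% of all genes tested. It held the highest value in 4 (*Insig2*, *Npc1*, *Ggps1* and *Tm7sf2*), or 14.8%, against 27.5% of all genes. The 7KC-IMQ libraries were close to each other, with a median absolute difference of 0.095 between them over the 27 genes, whereas the 2 Cont-IMQ libraries differed by a median of 0.29. Over all genes the same medians were 0.11 and 0.14.

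**Figure D2:**
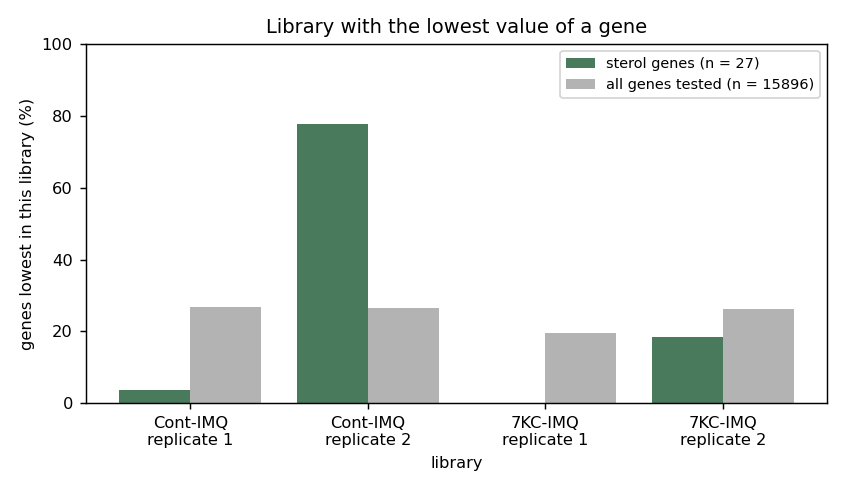
Share of genes (%) for which each library holds the lowest of the 4 values, for the 27 sterol genes (green) and for all 15896 genes tested (grey). Cont-IMQ replicate 2 is lowest in 77.8% of the sterol genes and in 26.6% of all genes, and 7KC-IMQ replicate 1 is lowest in none of the sterol genes.

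The first enzymes carry acetyl-CoA to the activated isoprene unit, and in all 5 of them measured here Cont-IMQ replicate 2 was the lowest library. *Mvd*, the decarboxylase that yields isopentenyl diphosphate, stood at 50.4 and 32.7 against 52.0 and 53.0 FPKM. Cont-IMQ replicate 2 thus lay apart from the other libraries, and the difference between the groups was 0.36 (SE 0.21, adjusted p = 0.531 in limma), but 0.057 without Cont-IMQ replicate 2. *Acat2*, the cytosolic thiolase that joins 2 acetyl-CoA, showed the same order, with 41.1 and 29.4 FPKM against 44.4 and 44.6 FPKM. Its difference of 0.35 (SE 0.17, adjusted p = 0.466 in limma) became 0.11 without that library, and *Acat3* shares 33.9% of its 75-base windows, so that reads of these genes can be exchanged. *Pmvk*, the second kinase of mevalonate, had 94.1 and 70.9 FPKM against 94.8 and 104 FPKM. *Mvk*, the first of these kinases, had 52.0 and 35.7 FPKM against 51.0 and 45.9 FPKM, so Cont-IMQ replicate 1 was its highest library and Cont-IMQ replicate 2 its lowest. *Hmgcs1* was the only gene of this step with a lower mean in the 7KC-IMQ group, at 180.3 and 145 FPKM against 146 and 162 FPKM. Its libraries overlapped, the difference was -0.070 (95% confidence interval -0.42 to 0.28), and the sign changed without Cont-IMQ replicate 1 (0.087) and without 7KC-IMQ replicate 1 (0.0053).

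Isoprene units are then isomerized by *Idi1* and joined by *Fdps* and *Ggps1*. *Idi1* was found at 130 and 109 FPKM against 135 and 148 FPKM, without overlap, with a difference of 0.25 (SE 0.11, adjusted p = 0.441 in limma). That difference stayed between 0.13 and 0.38 with each library left out. *Fdps* had 312 and 243 FPKM against 286 and 288 FPKM, so both 7KC-IMQ libraries lay between the Cont-IMQ libraries. Its difference was 0.060, and it was negative with same-sum scaling, quantile normalization and without Cont-IMQ replicate 2. *Ggps1*, the branch toward protein prenylation, varied least of these 3, with 10.4 and 10.7 FPKM against 10.2 and 9.88 FPKM. Sequence shared with other genes reached 23.6% of the windows of *Idi1*, 23.5% of those of *Fdps* and, in the next step, 21.8% of those of *Fdft1*.

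Squalene synthesis and ring closure gave the same picture. *Fdft1*, which makes squalene, had 53.7 and 41.8 FPKM against 50.7 and 54.2 FPKM. *Sqle*, squalene epoxidase, had 121 and 97.9 FPKM against 120.1 and 137 FPKM. *Lss*, which closes the ring to lanosterol, had 21.0 and 13.5 FPKM against 20.8 and 21.9 FPKM, and here the 2 Cont-IMQ libraries differed 1.55-fold while the 7KC-IMQ libraries differed 1.05-fold. In each of these 3 genes Cont-IMQ replicate 1 lay between the 7KC-IMQ libraries and Cont-IMQ replicate 2 was lowest. The difference of *Lss* was 0.32 (SE 0.21, adjusted p = 0.570 in limma), and 0.023 without Cont-IMQ replicate 2.

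Of the 9 enzymes from lanosterol to cholesterol, 7 were lowest in Cont-IMQ replicate 2. *Cyp51*, lanosterol demethylase, had 83.2 and 70.8 FPKM against 88.6 and 95.5 FPKM. It had the lowest adjusted p-value of the enzymes, with a difference of 0.26 (SE 0.11, adjusted p = 0.410 in limma) that lay between 0.14 and 0.37 when any 1 library was left out. *Hsd17b7*, a ketosteroid reductase of the pathway, was the most uneven within a group, with 27.5 and 15.9 FPKM in Cont-IMQ, a 1.73-fold difference, against 22.5 and 25.1 FPKM. Its difference between the groups was 0.18 with all libraries, -0.20 without Cont-IMQ replicate 2 and 0.56 without Cont-IMQ replicate 1. *Ebp*, the sterol isomerase, had 49.5 and 33.9 FPKM against 49.9 and 53.2 FPKM. *Nsdhl*, which acts in the removal of the methyl groups, had 32.8 and 27.7 FPKM against 35.5 and 34.0 FPKM. Both lay higher without overlap in the 7KC-IMQ group, by 0.32 and 0.20, and by 0.056 and 0.080 without Cont-IMQ replicate 2.

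*Msmo1* had 172 and 140.2 FPKM against 171 and 183 FPKM. *Sc5d*, a desaturase, had 37.3 and 27.6 FPKM against 33.2 and 33.8 FPKM. *Dhcr7*, the last reductase that turns 7-dehydrocholesterol into cholesterol, had 62.9 and 52.5 FPKM against 60.9 and 57.3 FPKM. In *Sc5d* and *Dhcr7* both 7KC-IMQ libraries again lay between the Cont-IMQ libraries, and their differences of 0.060 and 0.040 became negative without Cont-IMQ replicate 2 and with same-sum scaling, and that of *Dhcr7* also with quantile normalization and without 7KC-IMQ replicate 1. The 2 reductases of similar activity, like *Ggps1*, were not lowest in Cont-IMQ replicate 2. *Tm7sf2* had 9.76 and 9.96 FPKM against 9.36 and 8.19 FPKM, a difference of -0.15 (SE 0.10, adjusted p = 0.572 in limma) that ran from -0.24 without 7KC-IMQ replicate 1 to -0.068 without 7KC-IMQ replicate 2. *Lbr*, which is also a protein of the inner nuclear membrane, had 16.7 and 18.2 FPKM against 18.3 and 17.0 FPKM.

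**Figure D3:**
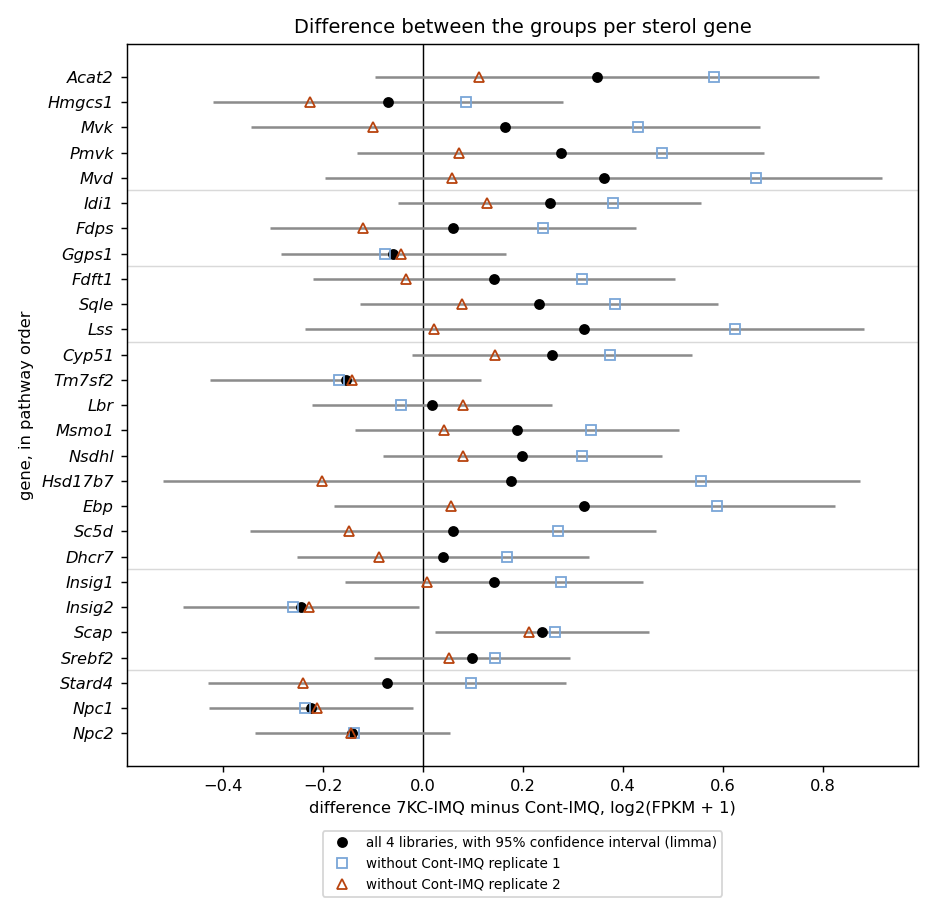
Difference 7KC-IMQ minus Cont-IMQ in log2(FPKM + 1) for each sterol gene, with all 4 libraries (black points, grey lines for the 95% confidence interval in limma), without Cont-IMQ replicate 1 (blue squares) and without Cont-IMQ replicate 2 (red triangles). For most enzymes the squares and triangles lie far apart on either side of the black point, as in *Hsd17b7* (0.56 and -0.20), whereas for *Insig2*, *Scap*, *Npc1* and *Npc2* they nearly coincide.

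Over the 20 synthesis enzymes, 17 had a higher mean in the 7KC-IMQ group, with a median difference of 0.18. This median was 0.032 without Cont-IMQ replicate 2, with 11 enzymes higher and 9 lower. Of the 17 enzymes that were lowest in Cont-IMQ replicate 2, Cont-IMQ replicate 1 lay above both 7KC-IMQ libraries in 6, between them in 4 and below both in 7. The summed FPKM of the 20 enzymes was 1557 and 1226 against 1501 and 1576. The 7KC-IMQ libraries were thus on both sides of Cont-IMQ replicate 1, and Cont-IMQ replicate 2 was below the other libraries.

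**Figure D4:**
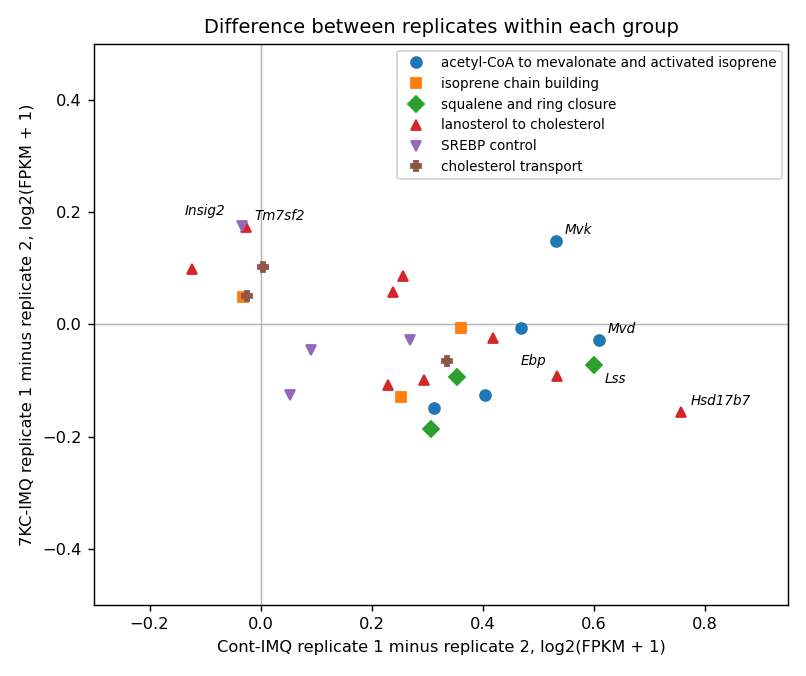
Difference between the replicates of the Cont-IMQ group (horizontal axis) and of the 7KC-IMQ group (vertical axis), replicate 1 minus replicate 2 in log2(FPKM + 1), 1 point for each sterol gene by its role. Most enzymes lie far to the right and near 0 on the vertical axis, with *Hsd17b7* farthest, while *Insig2*, *Tm7sf2* and other genes lie near 0 on the horizontal axis.

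The control genes were less uneven between the Cont-IMQ libraries. *Scap*, the escort of SREBP, had 34.6 and 33.3 FPKM against 38.5 and 42.1 FPKM. The groups did not overlap, and the difference of 0.24 (SE 0.081, adjusted p = 0.366 in limma) stayed between 0.18 and 0.30 with each library left out. *Insig2*, which encodes one of the 2 proteins that retain SCAP, had 41.5 and 42.5 FPKM against 37.6 and 33.1 FPKM. Its difference was -0.24 (SE 0.089, adjusted p = 0.376 in limma), from -0.33 to -0.16 with each library left out. *Insig1*, the other of these proteins and itself a target of SREBP, had 29.7 and 24.5 FPKM against 29.6 and 30.2 FPKM, which is the order of the enzymes and not that of *Insig2*. *Srebf2*, which encodes the SREBP of cholesterol synthesis, had 51.5 and 48.3 FPKM against 52.6 and 54.3 FPKM, a difference of 0.098 (95% confidence interval -0.098 to 0.29). The unadjusted p-values from limma were 0.0358 for *Scap* and 0.0451 for *Insig2*, and neither difference held after adjustment. *Scap* shares 8.27% of its windows with 5830462I19Rik, from which its reads could not be told apart there.

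All 3 transport genes had a lower mean in the 7KC-IMQ group. *Npc1*, which exports cholesterol from lysosomes, had 17.9 and 18.2 FPKM against 15.6 and 15.01 FPKM, with a difference of -0.22 (SE 0.077, adjusted p = 0.368 in limma). *Npc2*, the soluble protein that hands cholesterol to NPC1, had 99.3 and 99.0 FPKM against 93.1 and 86.6 FPKM, with a difference of -0.14 (SE 0.074, adjusted p = 0.495 in limma) that ran from -0.19 without 7KC-IMQ replicate 1 to -0.090 without 7KC-IMQ replicate 2. Both were lower without overlap, and in each the Cont-IMQ libraries differed less from each other than from the 7KC-IMQ libraries. *Stard4*, a cytosolic sterol carrier under SREBP control, behaved otherwise, with 18.7 and 14.7 FPKM against 15.3 and 16.1 FPKM. Its difference of -0.072 turned to 0.095 without Cont-IMQ replicate 1.

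Other genes of lipid metabolism were listed by function for comparison, and none of the 53 passed the threshold in limma. Over all genes, 23.9% were higher and 22.9% lower without overlap, and these shares apply to each count of such genes that follows. Of the 14 genes of the fatty acid arm, which is governed by SREBP-1, 9 were lowest in Cont-IMQ replicate 2 and their median difference between the groups was 0.036, with 2 (14.3%) higher and 1 (7.14%) lower without overlap. This median was 0.18 without Cont-IMQ replicate 1 and -0.018 without Cont-IMQ replicate 2. *Srebf1*, which encodes SREBP-1, had 34.2 and 28.5 FPKM against 32.3 and 30.1 FPKM. *Scd1*, the stearoyl-CoA desaturase of sebocytes, had 257 and 173 FPKM against 274.7 and 267 FPKM, with Cont-IMQ replicate 2 again lowest. *Fasn*, fatty acid synthase, had 30.5 and 29.2 FPKM against 33.6 and 35.5 FPKM, with a difference of 0.20 (SE 0.075, adjusted p = 0.378 in limma). *Gpam*, a glycerol-phosphate acyltransferase, was lower without overlap, with 20.5 and 18.3 FPKM against 15.8 and 18.3 FPKM, and its second libraries were nearly equal.

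Of the 12 genes of sterol regulation and protein degradation, 3 (25%) were higher and 5 (41.7%) lower without overlap. *Tmem97*, a sterol-binding protein of the endoplasmic reticulum, had 25.3 and 22.3 FPKM against 31.3 and 32.6 FPKM, with a difference of 0.41 (SE 0.093, adjusted p = 0.354 in limma). *Erg28*, a scaffold of the demethylation enzymes listed under an older symbol, had 47.8 and 38.2 FPKM against 49.0 and 50.2 FPKM. The ubiquitin ligases *Rnf139* and *March6* differed by -0.21 and -0.19. The proteases that release SREBP, *Mbtps1* and *Mbtps2*, differed by -0.12 and -0.042, with *Mbtps1* at 39.2 and 39.8 FPKM against 37.3 and 35.4 FPKM.

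Of the 12 genes of cholesterol esters and of sterol movement between membranes, 3 (25%) were higher and 2 (16.7%) lower without overlap. *Nceh1*, a cholesterol ester hydrolase, had 6.37 and 6.403 FPKM against 4.002 and 4.15 FPKM, a difference of -0.54 (SE 0.096, adjusted p = 0.352 in limma). *Soat1*, which forms cholesterol esters, had 22.9 and 24.3 FPKM against 29.0 and 29.1 FPKM, a difference of 0.29 (SE 0.075, adjusted p = 0.356 in limma). The replicates of each group lay close together in both genes, and the groups did not overlap. Of the other genes of this list, *Osbpl9* differed by -0.073 and *Stard3* by 0.13 without overlap, the latter by 0.018 without 7KC-IMQ replicate 2. In the branches that use isoprene units for other products, 5 of 11 genes (45.5%) were higher and 1 (9.09%) lower without overlap. *Pdss1*, which builds the side chain of coenzyme Q, had 13.9 and 11.8 FPKM against 19.7 and 22.1 FPKM, a difference of 0.66 (SE 0.12, adjusted p = 0.352 in limma). *Nus1*, a subunit of the enzyme of dolichol synthesis, differed by 0.36, and by 0.23 without 7KC-IMQ replicate 2. The prenyltransferase subunit *Fnta* differed by -0.13, and by -0.058 without Cont-IMQ replicate 1. On the side of LXR, the nuclear receptor that oxysterols activate, 3 of 4 genes (75%) were lower without overlap and none was higher. These 3 were *Mylip* and the receptor genes *Nr1h3* and *Nr1h2*, the last by -0.14. *Abcg1*, a transporter of 7KC, overlapped, with 8.94 and 8.31 FPKM against 8.04 and 8.43 FPKM, a difference of -0.058. *Mylip*, an LXR-induced ubiquitin ligase, had 20.4 and 16.7 FPKM against 13.1 and 11.5 FPKM, a difference of -0.55 (SE 0.13, adjusted p = 0.356 in limma). *Nr1h3*, which encodes LXR-alpha, had 10.3 and 15.8 FPKM against 10.2 and 10.2 FPKM, and its difference of -0.29 was -0.0053 without Cont-IMQ replicate 2.

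The cell types of the tissue moved with the libraries as well. The labelled skin was borne out by the 8 basal keratinocyte genes, which summed to between 7291 and 8913 FPKM. The 8 skeletal muscle genes summed to between 6731 and 8371 FPKM, so RNA of muscle was also part of these bulk samples. All 14 hair follicle markers, of which *Krt71* had the highest mean, were highest in Cont-IMQ replicate 2, with a summed FPKM of 131 and 1642 against 490.1 and 431. All 5 melanocyte markers, led by *Dct*, were highest in the same library as well, with sums of 45.3 and 149 against 85.1 and 73.5 FPKM. Of the 8 suprabasal keratinocyte markers tested, led by *Krtdap*, 6 were lowest in Cont-IMQ replicate 2. Their sums were 29765 and 19829 FPKM against 21814 and 24234 FPKM. Cont-IMQ replicate 1 thus lay above the other libraries, unlike in the sterol enzymes. Relative to the Cont-IMQ mean, their mean log2(FPKM + 1) was 0.22 and -0.22 against -0.23 and -0.10. The 13 sebaceous gland markers tested, led by *Mgst1*, summed to 793 and 681 FPKM against 883 and 867 FPKM. Of these, 7 were lowest in Cont-IMQ replicate 2. None of this list passed the threshold in limma (smallest adjusted p = 0.347), but genes of it lay apart between the groups in both directions. Without overlap, 8 (61.5%, against 23.9% of all genes) were higher and 4 (30.8%, against 22.9%) lower in the 7KC-IMQ group. Its median difference was 0.29, and 0.084 to 0.31 with a library left out. None of the markers of these lists was listed at 0 throughout. In bulk tissue, fewer cells of a type and less RNA per cell cannot be told apart, and the part of these cell types in the low sterol values of Cont-IMQ replicate 2 was not tested.

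**Figure D5:**
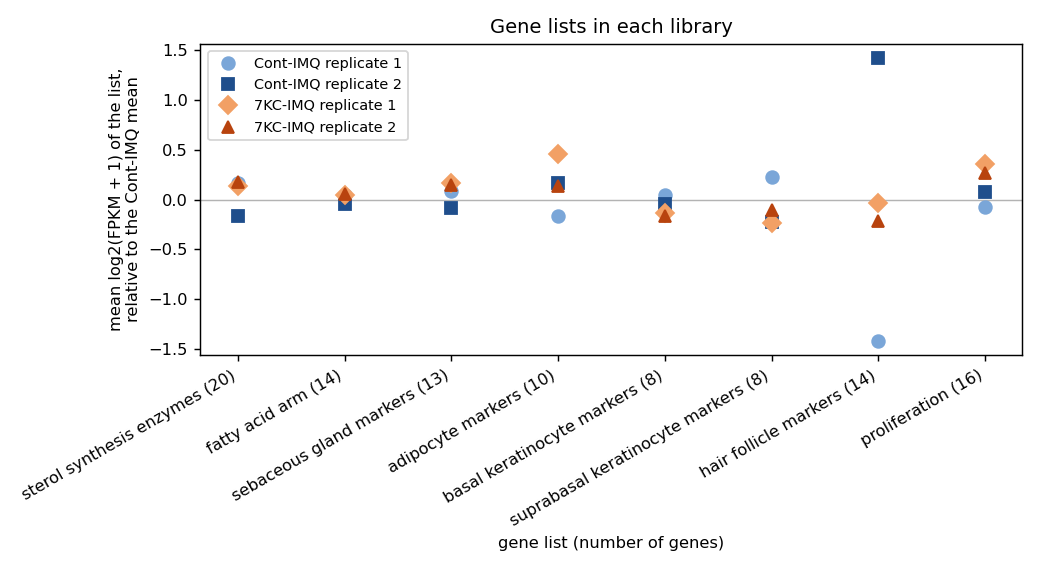
Mean log2(FPKM + 1) of each gene list in each library, relative to the mean of the Cont-IMQ group, with the number of genes in parentheses. Cont-IMQ replicate 2 (dark blue square) is lowest in the sterol synthesis enzymes and highest in the hair follicle markers, where Cont-IMQ replicate 1 is lowest.

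Of the remaining lists, the 16 proliferation genes all had the higher mean in the 7KC-IMQ group (48.7% of all genes did), 14 of them (87.5%) without overlap (23.9% of all genes), with sums of 337 and 368 FPKM against 445 and 432 FPKM. The 7 neutrophil markers tested summed to 18.8 and 21.3 FPKM against 29.9 and 32.1 FPKM. The endothelial list had a median difference of -0.36, from -0.42 to -0.29 with a library left out. Medians of other lists turned with 1 library, since the adipocyte median of 0.20 was -0.066 without Cont-IMQ replicate 1 and the fibroblast median of 0.16 was -0.11 without Cont-IMQ replicate 2. Without that library the macrophage median moved from -0.16 to 0.00045, and the T cell median of -0.016 lay between -0.088 and 0.056 with a library left out. Of the 8 fibroblast markers, 4 were lowest in Cont-IMQ replicate 2, with sums of 3556 and 2620 FPKM against 3342 and 2945 FPKM, so this list was also lowest in that library. None of the genes of these lists passed the threshold, and their part in the values of the sterol genes was not tested.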

How the data were processed

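RNA sequencing of IMQ-treated dorsal skin was analysed in 4 libraries, 2 of each group, grouped by the sample labels. Single-end reads of 75 bases were mapped by the authors to mm10 with TopHat, Bowtie2 and SAMtools; the deposited files hold 1 FPKM value per gene symbol and library, calculated with Cufflinks. Submitters' processing notes name TopHat2 2.1.1, Bowtie2 2.2.8, SAMtools 0.1.18 and Cuffdiff 2.2.1, which are not the versions in the published methods. How reads that map to several genes were treated is not given in the sources used here.

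FPKM values were transformed to log2(FPKM + 1) without further scaling. Changes of low genes come out too small on this scale. Genes whose FPKM averaged 0.1 or more were compared by limma 3.58.1 (R 4.3.3) with a variance trend and Benjamini-Hochberg adjustment at 0.05, and the fit was tested on simulated data. Depth was estimated by bringing low FPKM values of genes with 1 annotated transcript to whole reads, where 73.4% to 76.7% came within 0.1 of a whole number, against 20% by chance. Coordinates, transcripts and shared 75-base windows came from GENCODE M21 (GRCm38, also called mm10), and promoters from RefSeq.

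The members and lists were chosen with earlier results of these data known. Named outside the 27 genes were, from each of the other pathway lists, the 2 largest differences in each direction without overlap at a mean FPKM of at least 1. *Srebf1*, *Mbtps1*, *Mbtps2*, *Nr1h2* and *Abcg1* were named as well. Marker lists are given by counts, ranges and sums, with the highest-expressed gene where a list moved with the members. *Cxcr2* of the neutrophil list was also named, because it made up most of the sum of that list. Of 178 list genes, 1 was matched under another symbol and 5 were not among the symbols of the libraries. Of the 7 T cell markers that were found, 6 passed the filter on low values. Alternatives were another pseudocount, filter, scaling or variance model, the replicate number as a block, and leaving out each library.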

Additional observations from a re-analysis of the deposited data

How the results depend on the processing

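No sterol gene passed the threshold under any alternative run in limma, with a smallest adjusted p-value of 0.230 without Cont-IMQ replicate 1, and 0 to 15 of the 27 genes had an unadjusted p-value under 0.05 (15 without Cont-IMQ replicate 1, where 14.7% of all genes had one, and 0 without Cont-IMQ replicate 2, where 13.7% had one). Over all genes, 1 gene passed (*Mir24-2*, a microRNA gene listed at 0 in both 7KC-IMQ libraries and named after its value was seen), 2 with a pseudocount of 0.1, and 1 to 9 with a library left out (9 without Cont-IMQ replicate 1 and 5 without Cont-IMQ replicate 2). Sterol genes higher without overlap numbered 9, 5 with same-sum scaling (15% of all genes), and 10 to 21 with a library left out (21 without Cont-IMQ replicate 1, 14 without 7KC-IMQ replicate 1, where 38.5% and 35.8% of all genes were). Those lower without overlap numbered 5, and 5 to 12 with a library left out (12 without Cont-IMQ replicate 2, where 38.6% of all genes were). With 1 library against 2, more genes of any kind do not overlap. With 1 library left in a group, that library is assumed to vary like the other group.

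The sign of the difference turned in *Fdps* (-0.022), *Lbr* (-0.059), *Sc5d* (-0.019) and *Dhcr7* (-0.041) with same-sum scaling, and in *Fdps* (-0.015), *Lbr* (-0.012) and *Dhcr7* (-0.024) with quantile normalization. With a library left out, differences that changed sign ranged from -0.23 to 0.087 in *Hmgcs1*, -0.10 to 0.43 in *Mvk*, -0.12 to 0.24 in *Fdps*, -0.034 to 0.32 in *Fdft1*, -0.043 to 0.080 in *Lbr*, -0.20 to 0.56 in *Hsd17b7*, -0.15 to 0.27 in *Sc5d*, -0.088 to 0.17 in *Dhcr7* and -0.24 to 0.095 in *Stard4*. The other 18 genes kept their sign. The cause was not tested.

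Both groups use the same replicate numbers, and no source ties a number to a litter or day. Differences between replicates 1 and 2 of the 2 groups had a correlation of 0.065 over 15896 genes, so the numbers were not taken as pairs. With the replicate number as a block, 1 gene passed in all and 0 of the 27 sterol genes passed (smallest adjusted p = 0.471 in limma). In this balanced design the block cannot alter a difference or an overlap, only its error.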
